A study of Mus musculus with 6 samples.

Results

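Heat-shock chaperones were described here as 10 genes, *Hspa1a*, *Hspa1b*, *Hspa8*, *Hsph1*, *Hsp90aa1*, *Hspb1*, *Hspd1*, *Hspe1*, *Dnajb1* and *Bag3*, taken by symbol from the 32285 genes counted by single-cell RNA sequencing of mouse brain. All 10 were detected, and all 10 passed the minimum of 10 CPM over all cells. A UMI is a molecular tag by which each captured RNA molecule is counted once, and CPM is the UMIs of a gene summed over cells, per 1e+06 UMIs of those cells.

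Heat-shock chaperones are proteins that bind unfolded or damaged proteins, and many of their genes are switched on by heat shock factor 1 when unfolded protein accumulates. Hsp70 proteins such as HSPA1A bind exposed stretches of a protein in a cycle driven by ATP, which J-domain proteins such as DNAJB1 start and nucleotide exchange factors such as HSPH1 and BAG3 complete. In the brain, the inducible Hsp70 genes are known to respond to ischemia, and also to enzymatic dissociation of the tissue, together with immediate-early genes such as *Fos*.

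The cells came from male mice aged 8 to 12 weeks that were heterozygous for RGS5::GFP, in which GFP replaces 1 of the alleles of *Rgs5*, a gene of pericytes and smooth muscle cells. The middle cerebral artery had been permanently occluded in every animal. The 6 groups were the contralateral (contra) hemisphere at 1 h, the ipsilateral (ipsi) hemisphere at 1 h, contra at 12 h, ipsi at 12 h, contra at 24 h and ipsi at 24 h, with 1 library of live cells depleted of mature neurons for each. All groups shared the *Rgs5* allele, the surgery and a dissociation with enzymes at 37 °C for 1 h. By the methods, fewer mice than libraries were used for the sequencing, so the 6 libraries are not 6 independent animals. Which numbered libraries shared an animal is not known, and differences between libraries can also be differences between animals. The libraries are told apart by a number from 1 to 6 after each barcode, and which number belongs to which group is not given in the labels, the matrix or the methods. The numbers therefore stand for libraries and not for conditions, all cells were treated as 1 sample, and no p-value was computed; intervals are exact 95% intervals and cover counting error only.

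The 6 libraries held between 1221 and 5873 cells and between 7527251 and 33340937 UMIs in cells, in all 17357 cells with a median of 5338 UMIs. Over all cells, libraries 1 and 2 had the highest median mitochondrial shares, 3.83% and 3.37% per cell against 1.13% to 2.50% in the other libraries. The mix of cell classes, which differed in mitochondrial share, was not equal between libraries. Cells of different libraries shared 26 barcodes, where a random draw gives 17.2 on average, and 319 cells (1.84%) were called doublets and kept. Clusters were made without any chaperone gene and were named "-like" from marker lists, so a difference from the cell names of the study may come from these rebuilt names. The 5 main classes were microglia-like (7849 cells), oligodendrocyte-like (2785), endothelial-like (2680), astrocyte-like (1164) and pericyte-like cells (888). Cluster 15 (257 cells) scored as perivascular macrophages and held *Cd163* and *Lyve1* among its top 10 genes. However, it was led by *Mgl2*, *H2-Eb1* and *Clec10a*, genes of antigen-presenting cells. At resolution 1.2 there were clusters of 124 and 134 cells, only the former led by *Cd163* and *Lyve1*. How many cells of cluster 15 they held was not counted. Cluster 15 is therefore called by its number and given no cell type name. The T lymphocyte-like cluster (95 cells) had 2958 CPM of T lymphocyte markers in sum. It also had 771 CPM of natural killer (NK) cell markers, none at 0, so its name does not exclude NK cells. The markers of each of the 5 main classes summed to between 15890 and 44716 CPM in their own class, and none was at 0 there.

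Upstream sequences were taken from RefSeq to show what the members share before their transcription start, since many heat-shock genes are reached through heat shock elements, repeats of the unit GAA and its reverse complement TTC. The table listed 8 of the 10 members and not *Hsp90aa1* and *Hspa8*. A pair of units facing each other, GAANNTTC or TTCNNGAA on either strand, was searched in the 250 bases before each listed start. The lines below show, on the gene's own strand in the GRCm38.p6 build, the 150 bases before *Hspa1a* (chr17:34972157-34972306, minus strand), *Hspa1b* (chr17:34959239-34959388, minus strand) and *Hspb1* (chr5:135887769-135887918, plus strand), with the pairs of units in capitals. The first pair is shown because these genes are near-identical copies, and *Hspb1* because its RNA had another distribution over the cell classes.
Hspa1a: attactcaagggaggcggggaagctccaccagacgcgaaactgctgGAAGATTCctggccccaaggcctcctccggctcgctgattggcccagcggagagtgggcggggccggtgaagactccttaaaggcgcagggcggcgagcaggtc
Hspa1b: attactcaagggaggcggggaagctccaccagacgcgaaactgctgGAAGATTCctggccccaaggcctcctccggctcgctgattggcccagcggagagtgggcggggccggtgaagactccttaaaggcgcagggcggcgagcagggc
Hspb1: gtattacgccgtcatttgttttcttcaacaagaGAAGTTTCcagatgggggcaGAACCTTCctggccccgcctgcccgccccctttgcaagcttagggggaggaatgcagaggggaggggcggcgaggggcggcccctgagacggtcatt

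*Hspa1a* and *Hspa1b* are genes without introns, on the same strand of chromosome 17 with 9951 bases between them, and their upstream 250 bases were identical at 247 positions (98.8%). In both, the pair of units began 104 bases before the start. *Hspb1* had pairs of units beginning 117 and 97 bases before its start. Shorter sites of 30 bases are shown for *Hspe1* (chr1:55088053-55088082, plus strand) and *Hsph1* (chr5:149636346-149636375, minus strand), because the first lies near the starts of genes transcribed in opposite directions and the second holds the match closest to a start. Both sites fall inside annotated exons of some transcript, whereas the windows of 150 bases above overlap none.
Hspe1: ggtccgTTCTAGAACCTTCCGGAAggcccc
Hsph1: gaatctTTCTCGAAggctcgagaagaagga

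The *Hspe1* site had overlapping pairs that make a longer run of units, and it also lay 134 to 144 bases before another listed start of *Hspd1*, on the opposite strand. *Hspd1* and *Hspe1* are neighbours on chromosome 1 whose annotated ends overlap by 112 bases. No pair of units was found in the windows of *Dnajb1* and *Bag3*, which says only that these letters are not in these bases. Of all 32851 promoters listed, 12.8% held a pair and 0.466% held such a longer run, so that a match is a description of the sequence and does not show binding.

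The question put to the counts was in which brain cells each chaperone RNA was found and whether its level moved between libraries. In microglia-like cells 5 members were at least 2 times higher than in all other cells, namely *Hspa1a* (2.52 times), *Hspa1b* (2.98), *Hsph1* (2.07), *Dnajb1* (3.09) and *Bag3* (2.33). Over all 9378 genes tested, 15.5% were called higher there by the same rule. *Hspa8*, *Hsp90aa1*, *Hspd1* and *Hspe1* lay just under the threshold, between 1.82 and 1.96 times. Endothelial-like cells had 1 member higher, *Hspb1* at 10.99 times, where 11.0% of genes were called higher. In oligodendrocyte-like, astrocyte-like and pericyte-like cells 0 members were called higher, beside 13.1%, 11.3% and 8.97% of genes.

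Lower levels were most common in astrocyte-like cells, with 8 of 10 members at or below 0.5 times all other cells; 26.4% of genes were called lower in that class. The members left out of that count were *Hspe1* (0.523 times) and *Bag3* (0.582 times). Oligodendrocyte-like cells had 5 members lower (*Hspa1a*, *Hspa1b*, *Hspb1*, *Dnajb1* and *Bag3*) against 30.4% of genes, and endothelial-like cells also had 5 (*Hsph1*, *Hsp90aa1*, *Hspd1*, *Hspe1* and *Dnajb1*) against 24.7%. Pericyte-like cells had 3 members lower (*Hsph1*, *Hsp90aa1* and *Dnajb1*) against 22.0% of genes. Without library 6 the count was 5, and no share of all genes is given for that setting. In microglia-like cells 1 member was called lower, *Hspb1*, against 23.4% of genes; its level was 0.318 times that of all other cells (log2 ratio -1.65) but above the median of the other classes (log2 ratio 1.28), so its direction depends on the comparison. The median log2 ratio of the members was 1.01 in microglia-like cells, where the median of all genes was -0.08, and -2.15 in astrocyte-like cells, where it was -0.28.

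**Figure D1:**
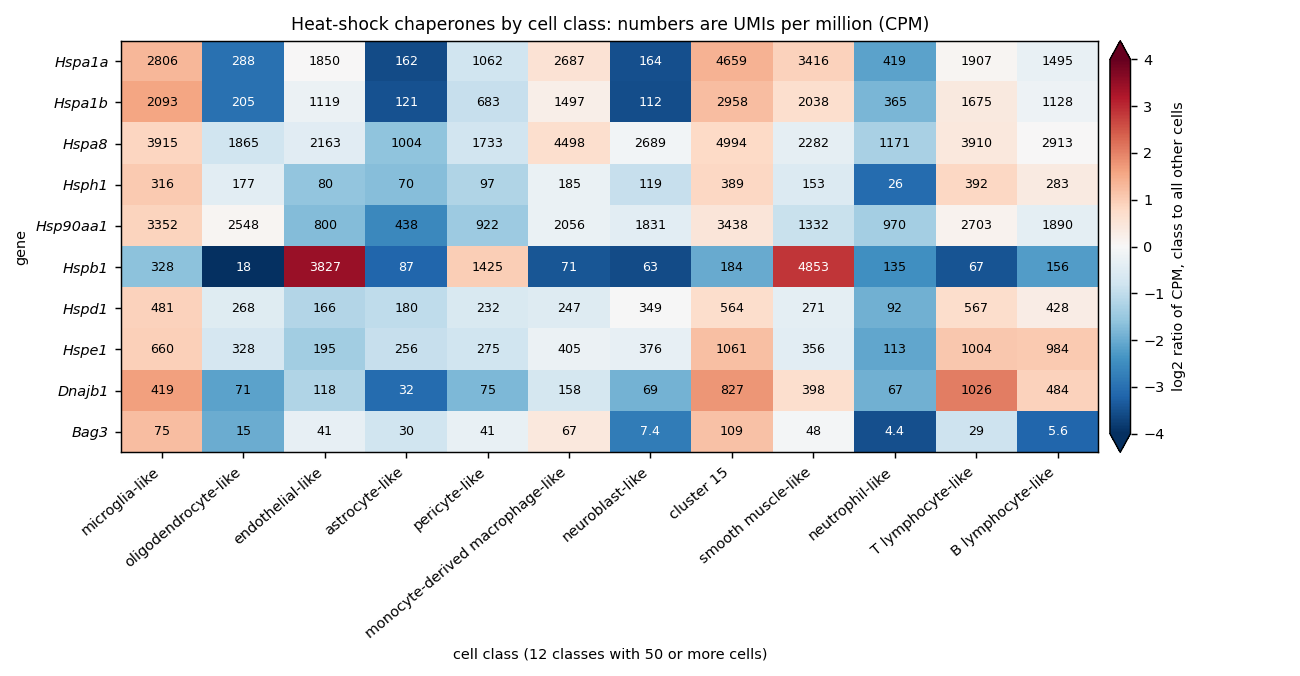
Levels of the 10 chaperone genes in the 12 cell classes with 50 or more cells, 1 of them given only as cluster 15. Numbers are CPM and the colour is the log2 ratio of a class to all other cells; *Hspb1* is high in smooth muscle-like (4853 CPM), endothelial-like (3827) and pericyte-like cells (1425), and microglia-like cells (328) are below the sum of all other cells though above the median of the other classes.

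In the GENCODE vM21 annotation of GRCm38, *Hspa1a* lies at chr17:34969190-34972156 and *Hspa1b* at chr17:34956436-34959238, both on the minus strand with 1 exon, and an antisense gene, Gm20481, overlaps *Hspa1a*. *Hspa8* lies at chr9:40800984-40810087 (9 exons) and *Hsp90aa1* at chr12:110690605-110702728 (11 exons). *Hsph1* (chr5:149614287-149636376) and *Hspb1* (chr5:135887919-135889563) share a chromosome, as do *Hspd1* (chr1:55077835-55088243) and *Hspe1* (chr1:55088132-55091307). *Dnajb1* lies at chr8:83608193-83612653 and *Bag3* at chr7:128523616-128546981.

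*Hspa1a* and *Hspa1b* encode nearly the same inducible Hsp70 protein. *Hspa1a* was highest in cluster 15 at 4659 CPM and in smooth muscle-like cells at 3416, followed by microglia-like cells at 2806 (2790 to 2821) and monocyte-derived macrophage-like cells at 2687. The T lymphocyte-like (1907) and endothelial-like (1850) levels did not differ beyond counting error, and pericyte-like cells were at 1062. At the low end stood oligodendrocyte-like cells at 288, and neuroblast-like (164) and astrocyte-like cells (162), whose order was within counting error. *Hspa1b* had nearly the same order, with cluster 15 at 2958 CPM, microglia-like (2093) and smooth muscle-like cells (2038) within counting error of each other, and astrocyte-like cells at 121.

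To compare shares of cells at equal depth, every cell was thinned to 1000 UMIs. After thinning, 58.4% of microglia-like, 44.2% of endothelial-like, 29.5% of pericyte-like, 14.0% of oligodendrocyte-like and 4.64% of astrocyte-like cells had an *Hspa1a* UMI. Of the *Hspa1a* UMIs of microglia-like cells, 44.3% lay in the 10% of cells with the most, as did 97.8% of those of astrocyte-like cells. The astrocyte-like level was thus carried by few cells. Markers of microglia were also counted in astrocyte-like cells, at 4.39% of their microglia-like level, where *Hspa1a* stood at 5.78% and *Hspa1b* at 5.80% of theirs. In oligodendrocyte-like cells the marker share was 2.42% and the *Hspa1a* share 10.3%. With an estimate of free RNA subtracted, chosen after seeing the data, *Hspa1a* in astrocyte-like cells went from 162 to 10.2 CPM and in oligodendrocyte-like cells from 288 to 159 CPM.

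In microglia-like cells, *Hspa1a* was measured in libraries 1 to 6 at 3330, 2789, 2732, 2474, 3657 and 2945 CPM. The highest library was 1.48 times the lowest (1.45 to 1.51), so this gene moved less between libraries there than in any other of the 5 main classes. *Hspa1b* in the same cells stood at 1252, 933, 2395, 1646, 2794 and 2176 CPM, a ratio of 2.995 between highest and lowest. Libraries 1 and 2 were the lowest for *Hspa1b* and not for *Hspa1a*. Between microglia-like cells and all other cells of the same library, *Hspa1a* was higher in 6 of 6 libraries, by 1.65 to 6.15 times, and at least 2 times in 4.

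In endothelial-like cells, *Hspa1a* read 2146, 1015, 1508, 1484, 2752 and 1688 CPM in libraries 1 to 6, and in pericyte-like cells 936, 1837, 509, 509, 1893 and 2313 CPM. Pericyte-like cells thus had a 4.55 times range (4.14 to 4.99), with libraries 3 and 4 low. In these libraries free RNA made up an estimated 25.8% and 31.9% of the pericyte-like counts and held 2191 and 1787 CPM of *Hspa1a*. The free RNA estimate thus reached the 509 CPM counted in each, and its part in the pericyte-like range was not tested. The summed CPM of the immediate-early genes in pericyte-like cells of libraries 1 to 6 was 3446, 10708, 3349, 4655, 3778 and 9056, high in libraries 2 and 6 and at most 4655 elsewhere; its part in the *Hspa1a* values was not tested. Astrocyte-like cells read 184, 11.2, 273, 61.6, 9.91 and 236 CPM, and library 5 rested on 32 cells and 2 *Hspa1a* UMIs. The share of free RNA in the astrocyte-like counts, estimated from microglial markers, was 12.96%, 4.04%, 18.6%, 6.74%, 1.84% and 34.4% in the same order. The 3 libraries with the highest *Hspa1a* also had the highest estimates. Markers brought by doublets, which were kept, count into this estimate as well. The part of free RNA in this range was not tested. Oligodendrocyte-like cells read 188, 224, 265, 438, 213 and 354 CPM, highest in library 4.

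Reads of *Hspa1a* and *Hspa1b* can be told apart only where the transcripts differ. Their coding parts were 99.5% identical and the parts after the stop codon 51.4% identical, and reads of 3′ libraries mostly start near the transcript's end. The number of *Hspa1b* UMIs per *Hspa1a* UMI was 0.384, 0.354, 0.848, 0.669, 0.706 and 0.671 in the cells of libraries 1 to 6. Libraries 1 and 2 were below all others, and the same was seen within microglia-like (0.376 and 0.334 against 0.665 to 0.877), endothelial-like (0.338 and 0.399 against 0.528 to 0.669), oligodendrocyte-like (0.372 and 0.293 against 0.682 to 0.980) and pericyte-like cells (0.538 and 0.324 against 0.598 to 0.785), although the interval of library 1 in pericyte-like cells (0.433 to 0.665) overlapped that of library 4 there (0.499 to 0.714). Astrocyte-like cells of library 2 went the other way at 1.5, from 8 *Hspa1a* and 12 *Hspa1b* UMIs (0.564 to 4.23). Barcodes with 1 to 50 UMIs, which hold RNA free in the suspension, gave 0.417, 0.366, 0.717, 0.564, 0.521 and 0.566. Over all cells, libraries 1 and 2 also had the highest median mitochondrial shares, and so they had within endothelial-like and pericyte-like cells. Within microglia-like cells library 6 was the highest, at 1.86% against 1.78% and 1.54% in libraries 1 and 2. In oligodendrocyte-like cells library 5 (4.65%) stood above library 2 (4.47%). The part of RNA quality in this ratio was not tested. By the labels the kit version at 12 h differed from that at 1 and 24 h, whereas the methods name 1 version for all. The methods also name a NovaSeq sequencer for the samples of 1 and 12 h and a HiSeq for those of 24 h. Since the numbers carry no group, neither the kit nor the sequencer can be tied to the ratio.

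**Figure D2:**
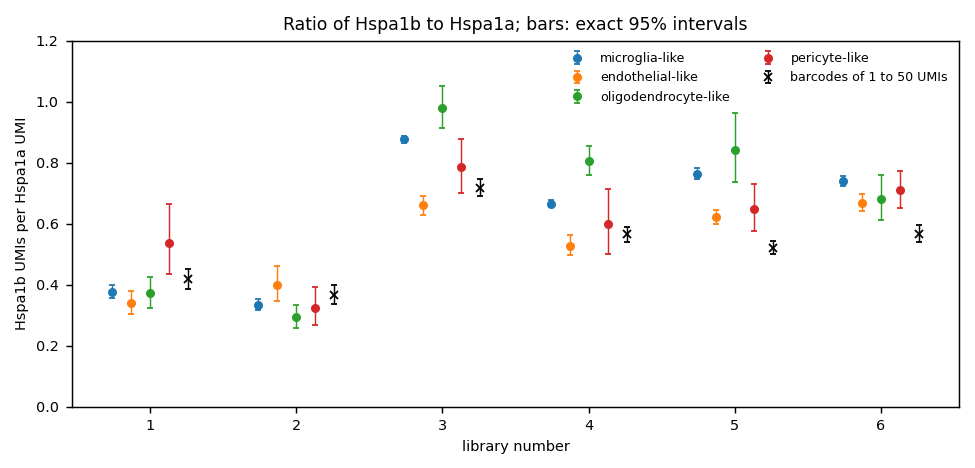
*Hspa1b* UMIs per *Hspa1a* UMI by library number in 4 cell classes and in barcodes of 1 to 50 UMIs, with exact 95% intervals. Libraries 1 and 2 lie between 0.293 and 0.538, and libraries 3 to 6 between 0.521 and 0.980.

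*Hspa8* encodes the constitutive Hsp70 of the cytosol, which also uncoats clathrin vesicles. It was found in every class, from 4994 CPM in cluster 15 and 4498 in monocyte-derived macrophage-like cells to 1004 in astrocyte-like cells. Microglia-like (3915) and T lymphocyte-like cells (3910) did not differ beyond counting error. After thinning, 88.6% of microglia-like and 48.1% of astrocyte-like cells had a UMI, so the gene was less divided between classes than *Hspa1a*. In the last 500 bases of its transcript, 9 pseudogenes hold a copy of at least 100 bases at 90% identity or more, none of them listed in the matrix. How reads that match both were assigned was not tested. *Hspb1* has 1 such copy, and the other members except *Hspe1* have 0.

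In microglia-like cells *Hspa8* stood at 3161, 2030, 3502, 4148, 3959 and 5244 CPM in libraries 1 to 6, and in pericyte-like cells at 551, 840, 1657, 2024, 1458 and 2772 CPM. Library 6 was the highest and libraries 1 and 2 the lowest in both classes. The ratio of highest to lowest was 2.58 (2.50 to 2.67) and 5.03 (4.25 to 5.99). Free RNA made up an estimated 6.85%, 4.42%, 25.8%, 31.9%, 20.2% and 23.8% of the pericyte-like counts in libraries 1 to 6, and it held 1792, 1822, 3650, 3387, 2805 and 3252 CPM of *Hspa8*. Both were lowest in libraries 1 and 2, and their part in the pericyte-like range was not tested. In oligodendrocyte-like cells it was 1.67 (1.62 to 1.73), from 1373 CPM in library 1 to 2298 in library 3.

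*Hsph1*, an Hsp110 protein that exchanges the nucleotide of Hsp70, was highest in T lymphocyte-like cells (392 CPM) and cluster 15 (389), which did not differ beyond counting error. Microglia-like cells were at 316 CPM, oligodendrocyte-like cells at 177, endothelial-like cells at 80.0 and astrocyte-like cells at 70.4. Microglia-like values in libraries 1 to 6 were 268, 118, 299, 254, 422 and 473 CPM. Library 2 was the lowest, and libraries 5 and 6 were the highest.

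*Hsp90aa1*, the stress-inducible cytosolic Hsp90, which folds kinases and steroid receptors, was high in cluster 15 (3438 CPM) and microglia-like cells (3352) and, unlike the inducible Hsp70 genes, in oligodendrocyte-like cells (2548). The oligodendrocyte-like level was 1.05 times that of all other cells, where *Hspa1a* was at 0.125 times. After thinning, 86.8% of oligodendrocyte-like cells had an *Hsp90aa1* UMI, against 69.8% of microglia-like and 23.6% of astrocyte-like cells. Endothelial-like (800 CPM), pericyte-like (922) and astrocyte-like cells (438) had the lower levels among the 5 classes. With free RNA subtracted, the pericyte-like level went from 922 to 589 CPM and the astrocyte-like level from 438 to 206 CPM.

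By library, microglia-like cells had 3395, 2002, 2569, 2400, 6470 and 5512 CPM of *Hsp90aa1*. Libraries 5 and 6 stood above the other 4 without overlap of their intervals, a ratio of 3.23 (3.12 to 3.35) between library 5 and library 2. Endothelial-like cells had 617, 594, 563, 562, 962 and 1104 CPM, again highest in libraries 5 and 6. Pericyte-like cells had 714, 896, 867, 867, 606 and 1470 CPM, where library 5 was the lowest, so the pattern of the microglia-like cells did not extend to them. Oligodendrocyte-like cells had 1895, 2240, 3063, 2826, 2246 and 2578 CPM, with library 3 the highest.

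*Hspb1* encodes a small heat-shock protein that holds unfolding proteins without ATP and binds actin filaments. Among classes of 50 or more cells its levels were highest in those of the vessel wall, where smooth muscle-like cells had 4853 CPM, endothelial-like cells 3827 (3792 to 3863) and pericyte-like cells 1425 (1385 to 1465). Microglia-like cells followed with 328 CPM (323 to 333), and oligodendrocyte-like cells were last with 17.96 CPM. The smallest classes, with 31 fibroblast-like and 22 choroid plexus-like cells, had 1583 and 398 CPM. Of the 454 *Hspb1* UMIs of oligodendrocyte-like cells, 288 lay in cluster 17, of whose cells 29.4% were called doublets. With free RNA subtracted the class level was 0 CPM. That is the limit of the subtraction and not a measured level, because the estimate exceeded the count in every library. After thinning, 83.5% of smooth muscle-like, 82.0% of endothelial-like and 62.6% of pericyte-like cells had an *Hspb1* UMI, against 10.7% of microglia-like and 0.826% of oligodendrocyte-like cells. The endothelial markers stood in microglia-like cells at 0.160% of their endothelial-like level, and *Hspb1* at 8.57%. In oligodendrocyte-like cells the same shares were 0.0773% and 0.469%. Of the *Hspb1* UMIs of microglia-like cells, 92.7% lay in the 10% of cells with the most, so the level there came from few cells.

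Endothelial-like *Hspb1* stood at 4322, 3199, 4343, 4622, 3661 and 3033 CPM in libraries 1 to 6. Its ratio of highest to lowest, 1.52 (1.48 to 1.57), was under the 2 times needed for a call, and it was higher than in all other cells of the library in 6 of 6 libraries, by 5.54 to 45.96 times. Microglia-like cells had 155, 105, 323, 289, 463 and 421 CPM. The lowest values there were those of libraries 1 and 2, and the ratio of highest to lowest was 4.42 (3.81 to 5.16). Pericyte-like cells had 829, 1326, 1602, 1072, 1111 and 1945 CPM, and *Hspb1* was higher than in all other cells of the library in 5 of 6 libraries and at least 2 times in 4. Over all libraries it reached 1.996 times in pericyte-like cells, just under the call, and it was called when library 1 or library 5 was left out.

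*Hspd1* and *Hspe1* encode the chaperonin of the mitochondrial matrix, a barrel and its lid. Their levels followed each other across the 12 classes (Pearson's r = 0.96 over 12 pooled classes, which share their libraries). This was not particular to the pair, since *Hspd1* followed *Hsph1* as closely (0.96). *Hspd1* was at 567 CPM in T lymphocyte-like, 564 in cluster 15, 481 in microglia-like, 268 in oligodendrocyte-like, 232 in pericyte-like, 180 in astrocyte-like and 166 in endothelial-like cells. *Hspe1* was at 1061 CPM in cluster 15, 1004 in T lymphocyte-like and 984 in B lymphocyte-like cells, neighbours that did not differ beyond counting error, and at 660 in microglia-like and 195 in endothelial-like cells. *Hspe1* has 4 such copies of its transcript end, 1 of them listed in the matrix, and is the less certain count.

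In microglia-like cells *Hspd1* read 339, 182, 332, 457, 596 and 969 CPM in libraries 1 to 6. This was the widest range of any member in that class, 5.33 times (4.77 to 5.97) from library 2 to library 6. *Hspe1* read 521, 390, 652, 677, 634 and 777 CPM, 1.99 times (1.84 to 2.16), so the barrel moved more than the lid although both were lowest in library 2 and highest in library 6. In endothelial-like cells *Hspd1* ranged from 87.5 CPM in library 2 to 206 in library 6, and *Hspe1* from 121 to 272 CPM in the same libraries.

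*Dnajb1* encodes a J-domain protein that hands substrates to Hsp70, and *Bag3* a nucleotide exchange factor that directs them to autophagy. *Dnajb1* was highest in T lymphocyte-like cells (1026 CPM) and cluster 15 (827). B lymphocyte-like (484), microglia-like (419) and smooth muscle-like cells (398) followed in an order within counting error. Pericyte-like (74.6), oligodendrocyte-like (71.1), neuroblast-like (69.3) and neutrophil-like cells (67.4) could not be ordered beyond counting error either, and astrocyte-like cells had 32.1 CPM. With free RNA subtracted, the astrocyte-like value was 1.77 CPM. *Bag3* was at 109 CPM in cluster 15 and 75.0 in microglia-like cells, at 41.0 in pericyte-like and 40.8 in endothelial-like cells, and at 15.4 in oligodendrocyte-like cells.

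Oligodendrocyte-like *Dnajb1* read 19.9, 20.4, 87.9, 130, 56.9 and 86.4 CPM in libraries 1 to 6. Lowest were libraries 1 and 2, and library 4 was 6.55 times library 1 (5.21 to 8.34). Microglia-like *Dnajb1* read 459, 226, 449, 362, 485 and 453 CPM, with library 2 the lowest. Microglia-like *Bag3* read 73.0, 56.7, 66.8, 60.2, 95.9 and 118 CPM, with libraries 5 and 6 the highest.

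**Figure D3:**
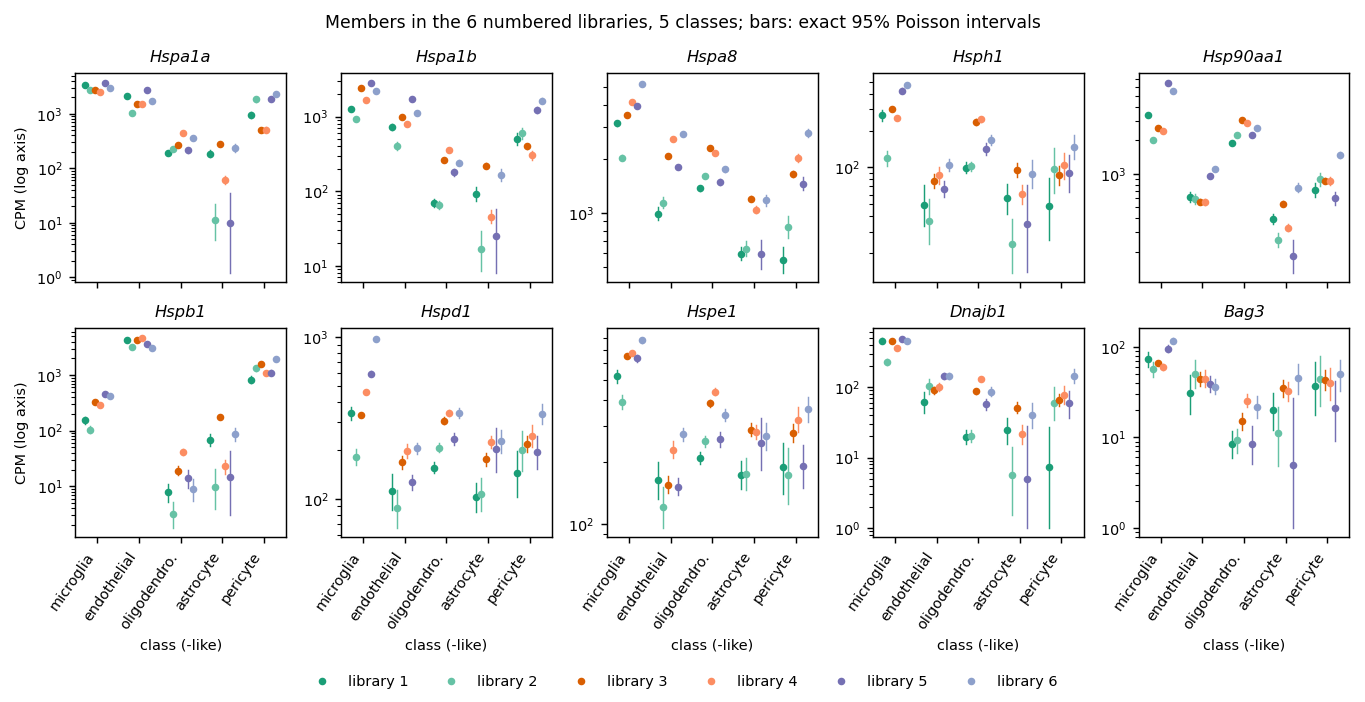
CPM of each chaperone gene on a log axis in the 6 numbered libraries within the 5 main cell classes, with exact 95% Poisson intervals as bars, drawn no lower than 1 CPM. *Hspb1* in endothelial-like cells stays between 3033 and 4622 CPM, whereas *Hspa1a* in astrocyte-like cells runs from 9.91 to 273 CPM, in libraries with an estimated free RNA share of 1.84% and 18.6%.

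Over the members with at least 50 CPM in a class, 8 of 10 differed at least 2 times between the highest and the lowest library in microglia-like cells, where 26.3% of genes did. The corresponding counts were 7 of 9 in endothelial-like cells (30.3% of genes), 6 of 8 in oligodendrocyte-like cells (10.4%), 7 of 8 in astrocyte-like cells (35.0%) and 9 of 9 in pericyte-like cells (46.3%). Library 2 carried part of this: without it, the counts were 4 in microglia-like cells (22.8% of genes) and 4 in endothelial-like cells (24.0%), and without library 6 the count in pericyte-like cells was 5 (35.6%). With doublets removed, 4 members differed in astrocyte-like cells (32.8% of genes). Without libraries 1 and 2 together, chosen after seeing the data, 2 members differed in microglia-like cells (17.5% of genes), 1 in endothelial-like (17.6%), 2 in oligodendrocyte-like (5.58%), 6 in astrocyte-like (20.9%) and 4 in pericyte-like cells (27.1%). A range over 4 libraries is narrower by its construction.

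Microglia-like cells fell into 5 clusters, and the level of each member, which was not used for clustering, differed between the highest and the lowest cluster by 2.37 to 9.80 times. No share of all genes is given beside this range, so it does not set the members apart from other genes. Genes that move with the members could still shape the clusters. Cluster 1 was led by A830008E24Rik and Gm34589, cluster 0 by Gm10138 and Cfap45, cluster 4 by *Cd83*, *Atf3* and *Fosb*, cluster 5 by *Lpl*, and the small cluster 24 (51 cells) by *Ifit3*, an interferon-response gene. *Hspa1a* stood at 4993 CPM in cluster 4 and 645 in cluster 1, a ratio of 7.74 (7.55 to 7.95), with clusters 0 (2693), 5 (2667) and 24 (2487) in between. The ratio of cluster 4 to cluster 1 was 9.80 for *Dnajb1*, 6.20 for *Hspb1*, 5.45 for *Hsp90aa1*, 3.07 for *Hspa8* and 2.37 for *Hspe1*. *Hspd1* was the exception: its highest level was in cluster 5, at 810 CPM against 581 in cluster 4.

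The immediate-early genes also differed between these clusters, but they were not left out of the clustering and could shape it. They summed to 5485, 14967, 23865, 21938 and 51277 CPM in clusters 1, 24, 0, 5 and 4, and the 10 members to 4882, 11836, 13745, 15896 and 22308 CPM. Median mitochondrial shares of the 4 large clusters lay between 0.783% in cluster 0 and 1.17% in cluster 5. Of thinned microglia-like cells with an *Hspa1a* UMI, 58.8% also had a *Fos* UMI, against 28.4% of those without, and 74.3% against 26.6% had an *Hspa1b* UMI. The part of the immediate-early response in the chaperone levels was not tested.

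The share of the microglia-like cells held by a cluster differed between libraries. Cluster 4 held 43.5%, 39.9%, 20.5%, 13.7%, 46.9% and 14.7% of them in libraries 1 to 6, and cluster 5 held 38.7% in library 4 and 62.4% in library 6 against at most 2.66% elsewhere. Within cluster 4, *Hspa1a* read 4571, 4870, 5005, 4974, 5249 and 4629 CPM in libraries 1 to 6, a ratio of 1.15 (1.10 to 1.19), nearly the same in all. *Hsp90aa1* in the same cells read 4434, 3282, 3973, 3915, 9078 and 10578 CPM, 3.22 times (3.08 to 3.37). Libraries 5 and 6 were the highest for *Hsp90aa1* in each of clusters 0, 1 and 4, and library 2 was the lowest in each. *Hspd1* in cluster 5 read 330, 611 and 1101 CPM in libraries 3, 4 and 6, the libraries with at least 30 cells of it.

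**Figure D4:**
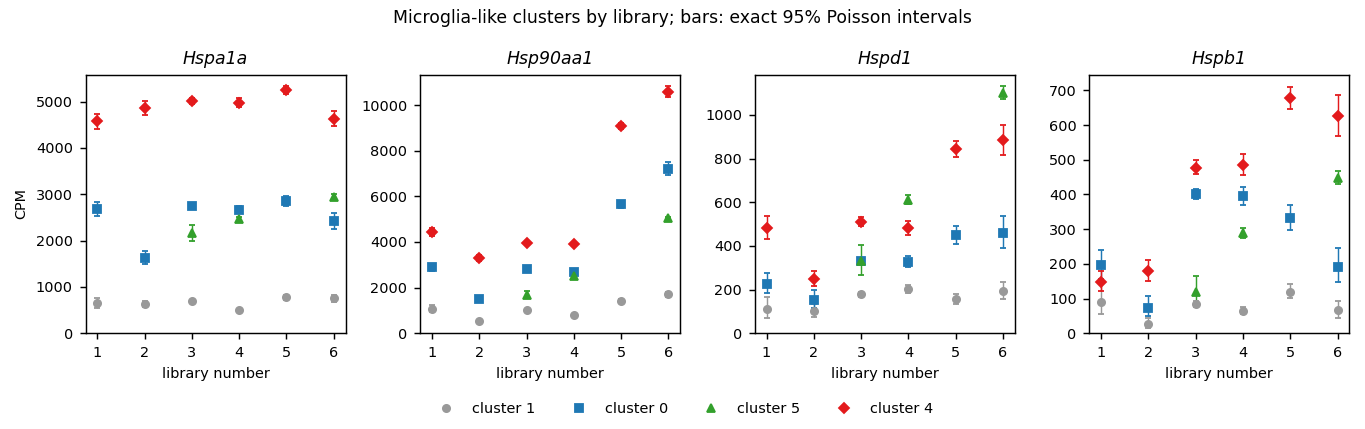
CPM of *Hspa1a*, *Hsp90aa1*, *Hspd1* and *Hspb1* in 4 clusters of microglia-like cells by library number, with exact 95% Poisson intervals. *Hspa1a* in cluster 4 lies between 4571 and 5249 CPM in all 6 libraries, whereas *Hsp90aa1* in the same cells reaches 9078 and 10578 CPM in libraries 5 and 6.

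Among endothelial-like cells, cluster 13, led by *Gkn3* and *Bmx*, genes of arterial endothelium, had the highest *Hspa1a* (2584 CPM against 1513 in cluster 8) and *Hspb1* (4480 against 3190). Cluster 8, led by *Ackr1*, a gene of venules, had the highest *Hspa8* (2950 CPM) and *Hspe1* (313), and it held 40.1% of the endothelial-like cells of library 4 and 50.8% of library 6 against at most 4.12% elsewhere. Among oligodendrocyte-like cells, cluster 19, led by *Btc* and *Serpina3n*, held 14.4% of these cells in library 4 and 18.2% in library 6, and it had the highest *Hspd1* (625 CPM against 198 in cluster 12), *Hspe1* (683 against 266) and *Bag3* (67.9 against 9.96 in cluster 2). Cluster 17 had the highest oligodendrocyte-like *Hspa1a* (1091 CPM) and *Hspb1* (210), and 29.4% of its cells were called doublets.

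The study described pericytes that express *Il11*, a cytokine gene, so the members were also compared between pericyte-like cells with an *Il11* UMI (49 cells) and without (839). *Hspa1a* was at 2422 CPM in the former and 941 in the latter, 2.57 times (2.36 to 2.79). The same ratio was 3.81 (2.84 to 5.06) for *Dnajb1*, 2.62 for *Hspa1b*, 2.03 for *Hsph1* and 1.80 for *Hspa8*, and *Hspb1* read 0.971 (0.874 to 1.08). *Hspe1*, *Hspd1* and *Hsp90aa1* read 1.91, 1.84 and 1.67, and *Bag3* read 0.755 (0.338 to 1.48). The cells without an *Il11* UMI came from all 6 libraries, whereas only libraries 4 and 6 had at least 5 cells with one. Within library 4 (19 against 133 cells) *Hspa1b* was at 5.05 times (3.79 to 6.74) and *Hspb1* at 0.192 times (0.127 to 0.280), whereas within library 6 (28 against 90 cells) they were at 1.495 times (1.30 to 1.71) and 1.18 times (1.03 to 1.34). The library 4 cells without an *Il11* UMI had 177 CPM of *Hspa1b*. Free RNA there held 1008 CPM of it and made up an estimated 31.9% of the pericyte-like counts. The library 4 cells with an *Il11* UMI had 28 *Hspb1* UMIs. *Hspa8* was at 1.38 times (1.21 to 1.56) within library 4 and 1.24 times (1.12 to 1.38) within library 6, both under the pooled 1.80. *Hsph1* read 2.21 (1.26 to 3.74) within library 4, and in library 6 its ratio of 1.26 (0.763 to 2.02) was within counting error of 1. So were *Hsp90aa1* in library 6 (1.07, 0.921 to 1.25), *Hspd1* in library 4 (1.01, 0.654 to 1.52) and *Bag3* in both. *Hsp90aa1* read 1.85 in library 4 and *Hspd1* 1.95 in library 6, and *Hspe1* read 1.76 and 1.55 in libraries 4 and 6. *Hspa1a* and *Dnajb1* were above 1 within both, at 2.50 and 1.97 and at 4.44 and 2.45 times. The *Hspb1* ratio of the pooled cells thus joined opposite ratios of both libraries. Cells with an *Il11* UMI were deeper, with a median of 4709 against 3339 UMIs, and the parts of depth and of free RNA were not tested.

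Cluster 22 of the pericyte-like cells, led by *Ccl11*, *Il11* and *Stc1*, held 18.4% of them in library 4, 29.7% in library 6 and 0% elsewhere. *Hspa1a* was at 2201 CPM there and at 926 in cluster 6, 2.38 times (2.20 to 2.57), and *Hspb1* at 1230 and 1448 CPM. Cluster 6, however, held cells of all libraries. Within library 6, *Hspa1a* was at 3236 CPM in cluster 22 and 1749 in cluster 6, and *Hspb1* at 1872 and 1990 CPM. Library 4 had 28 cells of cluster 22, under the minimum of 30, so its values are not given. Markers of microglia stood in pericyte-like cells at 7.47% of their microglia-like level. With free RNA subtracted, *Hspa1a* in pericyte-like cells went from 1062 to 776 CPM, *Dnajb1* from 74.6 to 20.3 and *Hspb1* from 1425 to 1575.

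**Figure D5:**
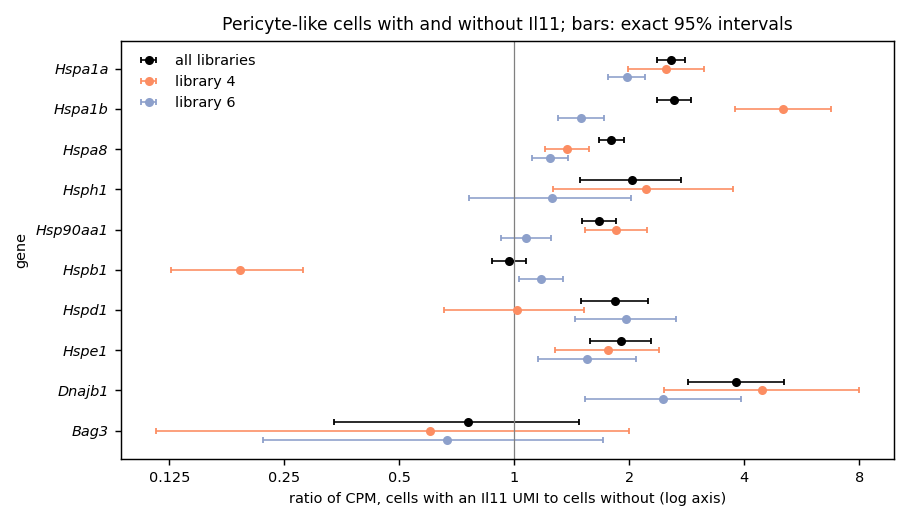
Ratio of CPM between pericyte-like cells with and without an *Il11* UMI on a log axis, for all libraries and within libraries 4 and 6, with exact 95% intervals. *Hspa1a* lies at 2.57, 2.50 and 1.97, and *Hspb1* at 0.971, 0.192 and 1.18.

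Several smaller classes had 30 or more cells in 2 to 4 libraries. Cluster 15 had 5682, 4828 and 3660 CPM of *Hspa1a* and 1349, 846 and 470 CPM of *Dnajb1* in libraries 3, 4 and 6. Both genes were highest in library 3 and lowest in library 6, and the summed immediate-early genes stood at 38475, 29026 and 11878 CPM in the same libraries. Smooth muscle-like cells had 2311, 3392, 4846 and 3186 CPM of *Hspa1a* and 3547, 5825, 5661 and 5103 CPM of *Hspb1* in libraries 3 to 6, with library 3 lowest for both. Monocyte-derived macrophage-like cells had 1121 CPM of *Hsp90aa1* in library 4 and 2492 in library 6, while *Hspa1b* stood at 1495 and 1423 CPM. The T lymphocyte-like cluster, led by *Gzma*, *Trbc2* and *Nkg7*, had too few cells for values by library.

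The genes most like a member were sought among 3623 genes over 45 groups of cells, each a class in a library, with the class mean subtracted; groups share libraries and depth, so r is a description. *Hspa1a* followed *Hspa1b* (Pearson's r = 0.83), *Jun* (0.69) and *Ahnak* (0.65) most closely, and *Hspd1* at 0.19. *Hspd1* followed *Serbp1* (0.84), *Ncl* (0.84), *Hspe1* (0.83) and *Hsp90ab1* (0.82). *Hsp90aa1* followed *Ncl* (0.73) and *Hsph1* (0.72), and *Hspb1* followed *Hsph1* (0.75), *Pdgfb* (0.68) and *Adap2os* (0.65). Across the 12 pooled classes instead, genes most like *Hspa1a* included *Tln1* (0.88) and *Nr4a1* (0.88), and those most like *Hspb1* were *Pcp4l1* (0.92), *Tns1* (0.91) and *Isyna1* (0.91).

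Other chaperone genes were counted from lists by the same rule. Of the 14 chaperones of the endoplasmic reticulum, 9 were at least 2 times higher in microglia-like cells, among them *Sdf2l1* (5.11 times) and *Pdia3* (2.91 times), and 11 were lower in oligodendrocyte-like cells. Over all genes tested, 15.5% were higher in microglia-like, 30.4% lower in oligodendrocyte-like and 26.4% lower in astrocyte-like cells. Of the 8 subunits of TRiC, the chaperonin of the cytosol, 0 were called in either direction in microglia-like, endothelial-like, oligodendrocyte-like or pericyte-like cells, and 2 were lower in astrocyte-like cells. Of 8 J-domain genes tested, 2 were higher in microglia-like cells, *Dnaja1* at 2.07 times and *Dnaja4* at 2.001 times, and *Dnajb2* was 11.4 times higher in oligodendrocyte-like cells. Among 16 genes of nucleotide exchange and Hsp90 cochaperones, *Fkbp5* was 4.12 times higher in microglia-like and *Bag5* 3.003 times in endothelial-like cells.

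Small heat-shock genes divided the classes. *Cryab*, which encodes alpha B-crystallin, was at 6368 CPM in oligodendrocyte-like cells, 59.95 times all other cells, where *Hspb1* was at its lowest. *Hspb8* was 19.98 times higher in endothelial-like cells, at 69.9 CPM. In the Hsp70 family, *Hspa2* was 10.6 times higher in pericyte-like and *Hspa12b* 142 times in endothelial-like cells. Both heat shock factor genes tested, *Hsf1* and *Hsf2*, were within 2 times of all other cells in each of the 5 classes, save *Hsf2* at 2.21 times in astrocyte-like cells. Of 21 immediate-early genes, 17 were higher in microglia-like cells, where 15.5% of all genes were. They were lower in oligodendrocyte-like (20, beside 30.4% of genes), astrocyte-like (20, 26.4%) and pericyte-like cells (16, 22.0%). Endothelial-like cells had 5 higher and 5 lower, beside 11.0% and 24.7% of genes.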

How the data were processed

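Live, neuron-depleted brain cells of 6 groups were sequenced with the 10x 3′ method, 1 library each. The authors deposited unfiltered UMI counts per gene and barcode in 1 matrix, made with Cell Ranger 5.0.1 (matrix header) and its aggr step, which can thin reads to even out depth; the submitters' processing notes name Cell Ranger 5 and the mm10 build. The libraries are numbered 1 to 6 without a group, so no condition was compared and no p-value was computed. The members, lists and comparisons were chosen with earlier results of these data known.

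Barcodes were kept as cells with at least 0.1 of the 99th percentile of UMIs among the 3000 deepest barcodes of a library, no fewer than 200 features and a mitochondrial share of 10% or less, leaving 17357 cells; the feature and mitochondrial limits alone leave 19864. After log-normalization (scale 10000), 2000 variable genes, without 78 chaperone genes, gave 30 principal components, a graph of 20 neighbours and 28 Leiden clusters at resolution 0.8. A cluster was named from marker lists when at least 3 markers were raised 2 times, which gave 14 classes and left 388 cells unnamed; 1 class is called by its number, cluster 15, since its leading genes went against its name. Doublets were scored by the procedure of Scrublet at an expected rate of 6% and kept. Levels are summed CPM with exact Poisson intervals, ratios have exact conditional intervals, and a call needs 2 times (a gene needs 10 CPM over all cells, or 50 CPM in a class for libraries of at least 30 cells). Free RNA was read from barcodes with 1 to 50 UMIs. Its share in a class came from microglial markers (oligodendrocyte markers for microglia-like cells). Markers brought by doublets thus count as free RNA in this estimate. The subtraction was made library by library, for the main classes alone, and stopped at 0 where the estimate exceeded the count. The genes named are all members, then examples with the highest or lowest ratios of fixed lists, cluster leaders and markers; a few genes that this rule names are not reported here. The steps were tested on simulated data. Alternatives are given in the closing section; those on free RNA and on libraries 1 and 2 were chosen after seeing the data. Python 3.11.15, numpy 2.4.6, scipy 1.17.1, pandas 2.3.3, scikit-learn 1.9.0, igraph 0.11.9, leidenalg 0.10.2, matplotlib 3.10.9 and Biopython 1.88 were used.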

Additional observations from a re-analysis of the deposited data

Results flagged for a closer look

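All 10 members were counted in barcodes with 1 to 50 UMIs, which are not cells, hold RNA free in the suspension and served only to estimate it. The pooled levels there were 1721 CPM for *Hspa1a*, 966 for *Hspa1b*, 2822 for *Hspa8*, 172 for *Hsph1*, 1998 for *Hsp90aa1*, 569 for *Hspb1*, 263 for *Hspd1*, 473 for *Hspe1*, 268 for *Dnajb1* and 42.9 for *Bag3*. These levels are far above the limit that a count of 0 allows. They were above the level of astrocyte-like cells for all 10 members, and for *Hspb1*, *Hspa1a*, *Hspa1b*, *Dnajb1*, *Bag3*, *Hspa8* and *Hspe1* also above that of oligodendrocyte-like cells. For all members except *Hspb1* they were above the pericyte-like level. For all except *Hspa1a*, *Hspa1b* and *Hspb1* they were above the endothelial-like level. *Bag3* was close to both, at 41.0 CPM in pericyte-like and 40.8 in endothelial-like cells. Of the microglia-like levels, only that of *Hspb1* was below.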

How the results depend on the processing

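Of 15 counts of members, recomputed under 20 settings in 279 cases, 258 stayed within 1.5 times of the value reported, and of 999 log2 ratios recomputed, 987 kept their sign. With the median of the other classes as the reference, the log2 ratio of *Hspb1* in microglia-like cells was 1.28 in place of -1.65, 0 members were lower in microglia-like cells in place of 1, 2 in place of 5 were lower in endothelial-like cells, and 1 in place of 0 was higher in pericyte-like cells. At 1.5 times in place of 2, 9 members in place of 5 were higher in microglia-like cells, 1 was higher and 8 in place of 3 were lower in pericyte-like cells. For the class counts in this section, the shares of all genes under each setting are not given. A lower threshold calls more genes of any kind. With doublets removed, 4 members in place of 7 differed between libraries in astrocyte-like cells and 1 was higher in pericyte-like cells. Leaving out each library in turn, the members higher in pericyte-like cells numbered 0 to 1 and those lower there 3 to 5. Members differing between libraries numbered 4 to 8 in microglia-like cells, beside 12.9% to 24.9% of genes. In endothelial-like cells they numbered 4 to 7 (20.8% to 28.7% of genes) and in pericyte-like cells 5 to 9 (35.2% to 43.6%). With free RNA subtracted, 9 members were higher in microglia-like cells, and 1 was higher and 7 were lower in pericyte-like cells. The subtraction covered the main classes alone, so the smaller classes were not in the reference of these counts. They therefore cannot be set directly beside the counts against all other cells, and the part of the changed reference was not tested. Without libraries 1 and 2, the members differing between libraries numbered 2 in microglia-like, 1 in endothelial-like, 2 in oligodendrocyte-like and 4 in pericyte-like cells. The last pair of alternatives was chosen after seeing the data, and beyond the narrower range of fewer libraries the causes were not tested. No paired analysis was possible because the numbered libraries carry no group. With 1 library per group, cells are not replicates, and intervals cover counting error only. Astrocyte-like values of library 5 rest on 32 cells, and that of *Bag3* there on 1 UMI.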
